A study of Mus musculus with 15 samples.

Results

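The proteasome genes described here are 46 of the 24015 genes in a table of RNA read counts from inguinal white adipose tissue, the subcutaneous fat pad of the mouse groin. They are the rows whose whole symbol is Psma, Psmb, Psmc, Psmd, Psme, Psmf or Psmg followed by a number, with a level (CPM, counts scaled to a common library total) of at least 1 in at least 3 of the 15 libraries. The pattern matched 48 rows. Psma8, a testis form of an alpha ring subunit, and Psmb11, the thymus form of a catalytic subunit, did not reach that level, and 14714 of all rows did. A further 2 symbols go on after the number and were left out. They are Psme2b, a near-identical copy of Psme2, and Psmc3ip, which codes for a recombination factor and not for a proteasome subunit. The 46 genes fall into 7 alpha ring subunits, 7 constitutive beta ring subunits, 3 immune catalytic subunits (Psmb8, Psmb9 and Psmb10), 6 ATPases and 11 other subunits of the regulatory particle, 7 assembly chaperones, 4 activators and the inhibitor gene Psmf1. All 46 passed the CPM limit in all 15 libraries, and the lowest value was 82 counts, for Psmg4.

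All animals were C57BL/6 mice kept at thermoneutrality, a temperature at which a mouse needs no extra heat production, for 2 weeks before 5 days of treatment, and no allele or transgene is named. The Young_Ctrl group (4 libraries) was 2 months old and had vehicle, and Young_CL (4 libraries) was of the same age and had CL by intraperitoneal injection. Old_Ctrl (3 libraries, numbered 1, 3 and 4) and Old_CL (4 libraries) were 12 months old and had vehicle and CL. CL is written out as cardiolipin in the labels, but it is also a common abbreviation for an agonist of β-adrenergic receptors, so only the name CL is used. Whether each library is from its own animal is not stated, and the p-values then measure only the spread between these libraries, which may be technical.

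The proteasome is the barrel-shaped protease that breaks down proteins tagged with ubiquitin. Its core is a stack of alpha rings, which form the gate, and beta rings, in which the subunits encoded by Psmb5, Psmb6 and Psmb7 cut the protein chain, and a regulatory particle with ATPases unfolds the substrate and feeds it in. Interferon-gamma induces Psmb8, Psmb9 and Psmb10, whose products take the places of those of Psmb5, Psmb6 and Psmb7 in newly built cores and give the immunoproteasome, which is abundant in lymphocytes and cuts peptides for display on class I molecules. In thermogenic fat, proteasome activity is known to be maintained by the transcription factor Nrf1, encoded by Nfe2l1.

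Total counts per library ran from 6115542 to 51577001. Adipocyte markers were present in every library (10 of 10 genes measured, summed level 11136 to 62594 CPM), and none of them stood at 0. Markers of lymphocytes were present too, and 5 libraries (Young_CL 1, 2 and 3, Old_Ctrl 3 and Old_CL 3) were rich in skeletal muscle transcripts, with a mean log2 CPM of 6.79 to 7.78 over 12 muscle genes against 0.98 to 4.2 in the other libraries. Old_CL 1, 2 and 4 resembled each other more than other libraries did, although they differed by more than sampling noise (chi-square of 2.65 to 4.90 per degree of freedom). Levels below are CPM scaled by the trimmed mean of M-values (TMM), and a change is called where edgeR's quasi-likelihood test over 15288 genes gave a Benjamini-Hochberg adjusted p under 0.05. In bulk tissue, fewer cells of a type and less RNA per cell cannot be told apart.

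The question of the first comparison was which proteasome genes changed with CL at each age. At 2 months, 37 of the 46 genes rose with CL and 2 fell, against 21.7% and 22.1% of all genes tested. Their median log2 change was 0.51, against -0.07 over all genes tested. At 12 months, 22 of 46 rose and 5 fell, against 23.1% and 22.2% of all genes tested, and the median log2 change was 0.27, against -0.01 over all genes. The 22 genes that rose at 12 months had all risen at 2 months too, and 15 others were called higher at 2 months and not called at 12 months. Psmb8 and Psmb9 fell at both ages, and Psmb10, Psme1 and Psmg4 were called lower at 12 months and not at 2 months. In 34 genes at 2 months the CL libraries lay above every vehicle library, and in 2 they lay below (18.0% and 16.1% of all genes). At 12 months this held for 28 and 6 genes (27.9% and 25.0% of all genes).

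The calls over all genes moved with the libraries used and with an adjustment for lymph node markers, and the counts of members moved with them. Without the 5 muscle-rich libraries, which leaves 1 library in Young_CL whose spread is taken from the other groups, 21 members were called higher and 0 lower at 2 months (11.9% and 7.13% of all genes tested), and 8 higher at 12 months (16.1% of all genes). In a fit adjusted for lymph node markers (mean log2 CPM of the B cell and lymph node list as a covariate), 12 members were called higher and 0 lower at 2 months (8.43% and 3.0% of all genes), and 7 higher and 5 lower at 12 months (15% and 14.9% of all genes). The lymph node list stood at 6.91 to 7.35 in Young_Ctrl, 6.15 to 6.70 in Young_CL, 5.48 to 6.45 in Old_Ctrl and 5.31 to 5.63 in Old_CL. Young_Ctrl overlapped with no other group, so a fit with this covariate cannot fully separate the markers from the group. Calls lost or reversed in it, here and below, are given as a description. Without Old_Ctrl 3 the count at 12 months was 14 higher (18.9% of all genes).

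**Figure D1:**
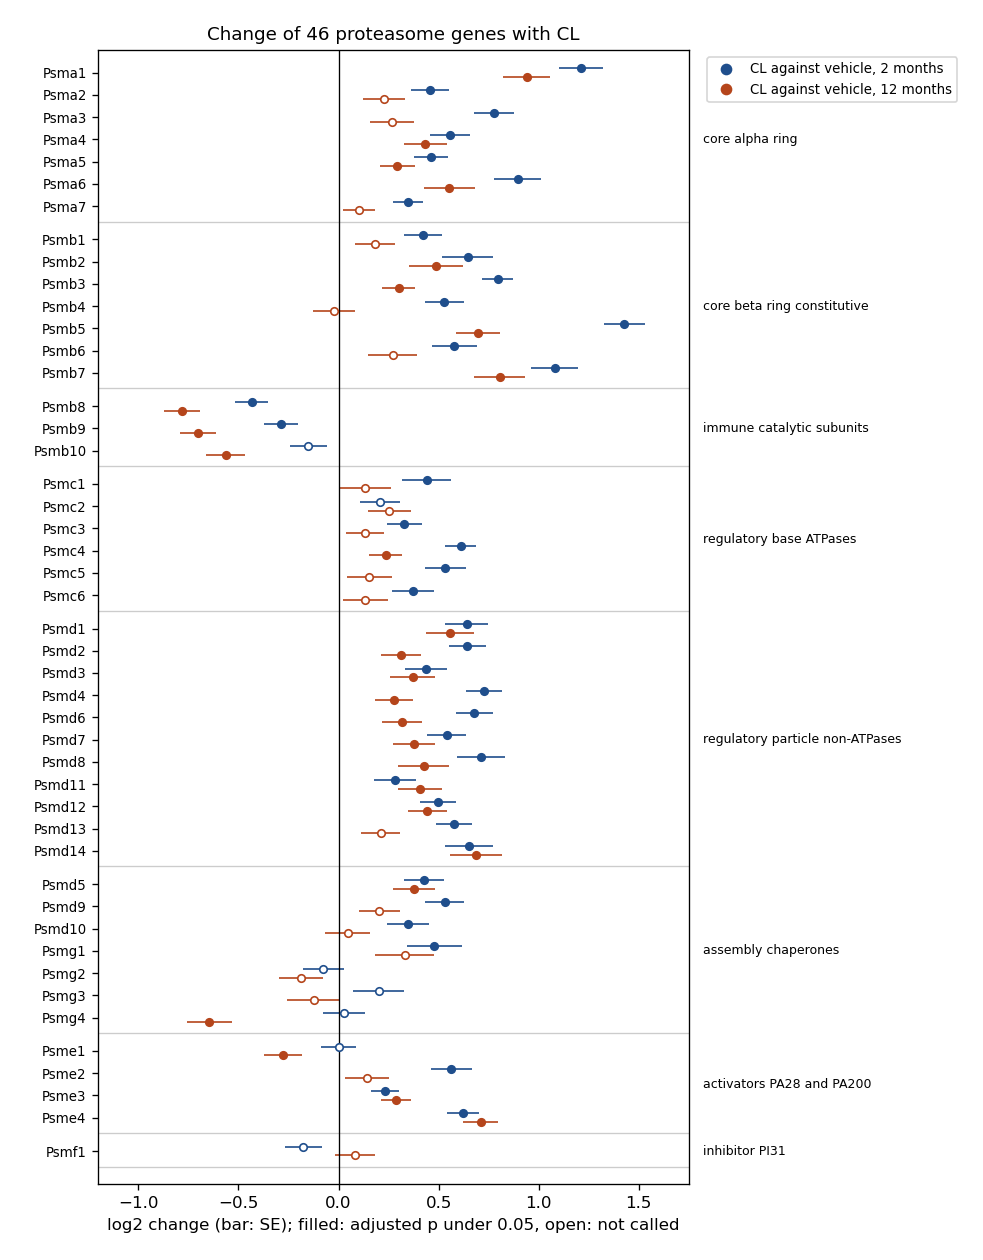
The log2 change with CL (horizontal axis) of each of the 46 proteasome genes (rows, grouped by role) at 2 months (blue) and 12 months (red), with bars of 1 standard error; filled points passed the adjusted p of 0.05. Of the 31 constitutive core and regulatory particle genes, 30 are called higher at 2 months and 19 at 12 months, and Psmb8, Psmb9 and Psmb10 lie to the left.

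Of the standard catalytic subunits, those encoded by Psmb5 and Psmb7 showed the largest changes of the beta ring. Psmb5 codes for the subunit that cuts after large hydrophobic residues. Its level was 51.96, 47.3, 45.4 and 43.5 CPM in the Young_Ctrl libraries and 131, 138, 109.5 and 127 in Young_CL. It was 54.9, 55.6 and 70.0 CPM in Old_Ctrl and 93.8, 95.4, 108 and 92.6 in Old_CL. Every CL library stood above every vehicle library of its age, and the Old_CL libraries stood below all Young_CL libraries. The rise was 2.69-fold at 2 months (log2 change 1.43 ± 0.10 SE, adjusted p = 8e-08), the largest of the 46 genes, and 1.62-fold at 12 months (log2 change 0.69 ± 0.11 SE, adjusted p = 0.0002). Adjusted for lymph node markers, the log2 changes were 1.13 and 0.47, and both were still called.

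Psmb7 codes for the subunit that cuts after basic residues. It stood at 91.4, 67.4, 68.8 and 67.2 CPM in Young_Ctrl and at 162, 156, 142 and 162 in Young_CL. In the older mice it stood at 88.6, 84.6 and 102 CPM in Old_Ctrl and at 148, 151, 190.4 and 152 in Old_CL. No CL library overlapped with a vehicle library at either age, and Old_CL 3 was the highest of its group. The log2 change was 1.08 ± 0.12 (SE, adjusted p = 3.8e-06) at 2 months and 0.81 ± 0.13 (adjusted p = 0.00019) at 12 months.

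Psmb6 codes for the subunit that cuts after acidic residues, and it changed less. Its values were 96.9, 79.2, 74.0 and 73.0 CPM in Young_Ctrl and 130.0, 132, 111 and 108 in Young_CL. They were 104, 102 and 123 CPM in Old_Ctrl and 123, 127, 151 and 127 in Old_CL. The groups did not overlap at 2 months, and at 12 months Old_CL lay above Old_Ctrl by a margin of under 1 CPM. The rise of 0.58 ± 0.11 (log2, SE, adjusted p = 0.00083) at 2 months was called, and the difference of 0.27 ± 0.12 at 12 months was not (adjusted p = 0.08). The call at 2 months was lost without the muscle-rich libraries (0.42, adjusted p = 0.082) and when adjusted for lymph node markers (0.24, adjusted p = 0.21).

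The non-catalytic beta subunits, which close the ring, were also called higher at 2 months. Psmb1, Psmb2, Psmb3 and Psmb4 had log2 changes of 0.42, 0.64, 0.79 and 0.53. At 12 months Psmb2 (0.49) and Psmb3 (0.30) were called higher, and Psmb1 (0.18) and Psmb4 (-0.02) were not called. In the constitutive beta ring, 7 of 7 genes were thus called higher at 2 months and 4 of 7 at 12 months.

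**Figure D2:**
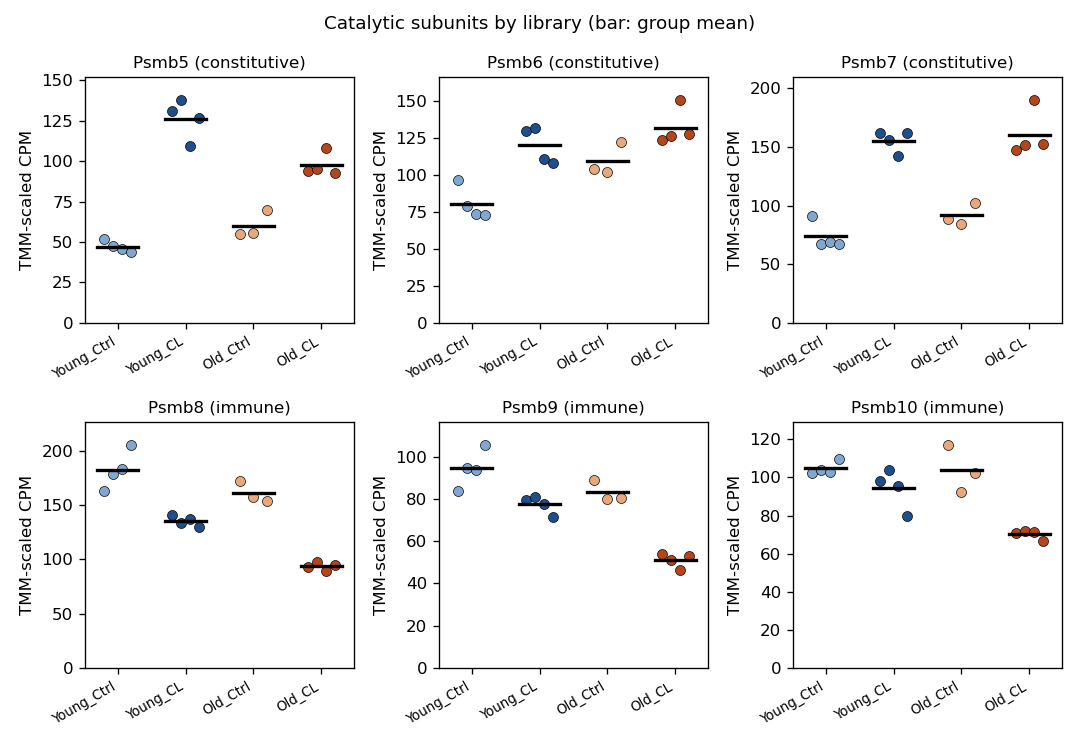
The level (vertical axis, TMM-scaled CPM, starting at 0) of Psmb5, Psmb6 and Psmb7 and of the immune subunits that replace them, Psmb8, Psmb9 and Psmb10, in each of the 15 libraries (points) with group means (bars). Psmb5 goes from a mean of 47.1 CPM in Young_Ctrl to 126 CPM in Young_CL, while Psmb8 goes from 183 to 135 CPM.

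The stretches before the annotated transcription start of Psmb5 and Psmb6 are shown because these catalytic genes carry a short element, TGACNNNGC, that is known to be bound by Nrf1 in proteasome promoters. The sequences come from RefSeq on the GRCm38.p6 build, in the direction of the gene, with annotated exon bases removed, and the capitals mark the match. The Psmb5 stretch is chr14:54618023-54618245 (minus strand), and the match lies 47 to 39 bases before the start. The Psmb6 stretch is chr11:70525107-70525356 (plus strand), and the match lies 9 to 1 bases before the start. The counts were made on the mm9 build, so no position was taken from one build to the other.
Psmb5: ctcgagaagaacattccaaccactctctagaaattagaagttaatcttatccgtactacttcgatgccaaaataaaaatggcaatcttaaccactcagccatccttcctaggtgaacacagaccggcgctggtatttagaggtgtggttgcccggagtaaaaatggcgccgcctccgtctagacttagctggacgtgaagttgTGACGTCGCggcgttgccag
Psmb6: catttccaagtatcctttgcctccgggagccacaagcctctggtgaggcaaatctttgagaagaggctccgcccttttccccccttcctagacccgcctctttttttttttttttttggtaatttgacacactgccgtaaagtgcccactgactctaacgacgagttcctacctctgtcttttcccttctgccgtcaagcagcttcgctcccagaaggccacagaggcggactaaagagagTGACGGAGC

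For the counts of elements, promoter windows from 250 bases before to 50 bases after the annotated start were found for 39 of the 46 genes, 42 windows in all. These windows are not the stretches printed above. They held matches even in Psmb8 and Psmb9, which had 0 bases left once exon bases were removed. The element TGACNNNGC, read on both strands, occurred in 6 of the 42 windows (14.3%), those of Psmb5, Psmb6, Psmc6, Psmd12, Psmd9 and Psme4, against 12.4% of 32851 windows of all genes. The heat shock element TTCNNNGAA occurred in 7.14% against 8.3%, and CCAAT in 31.0% against 37.4%. The interferon-stimulated response element, searched as a fixed repeat on both strands, occurred in 5 windows (11.9%), those of Psmb3, Psmd4, Psmd9, Psme1 and Psmg4, against 3.44% of all windows. These matches describe letters in a window and not bound sites. Genes with the interferon-type repeat went in different directions with CL. Psmb3 had log2 changes of 0.79 at 2 months and 0.30 at 12 months, Psmd4 0.73 and 0.28, and Psmd9 0.53 and 0.20. Psme1 had -8.9e-07 and -0.28, and Psmg4 0.03 and -0.65.

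The immune catalytic subunits went the other way. Psmb8, which takes the place of Psmb5, stood at 163, 179, 183 and 206 CPM in Young_Ctrl and at 140.4, 133, 137 and 129.7 in Young_CL. It stood at 172, 157 and 154 CPM in Old_Ctrl and at 92.9, 97.7, 89.3 and 95.1 in Old_CL. All CL libraries lay below all vehicle libraries at each age, and the Old_CL libraries were the lowest of the 15. Psmb8 fell by 0.43 on the log2 scale at 2 months (adjusted p = 0.00073) and by 0.78 at 12 months (adjusted p = 2.1e-05).

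Psmb9, which takes the place of Psmb6, had 83.8, 94.7, 93.5 and 106 CPM in Young_Ctrl and 79.5, 80.8, 77.5 and 71.6 CPM in Young_CL. In the 12-month groups the values were 89.1, 80.0 and 80.5 CPM with vehicle and 53.7, 51.3, 46.5 and 52.9 CPM with CL. The groups did not overlap at either age, with a gap of few CPM at 2 months. Psmb9 fell by 0.29 (log2, adjusted p = 0.012) and by 0.70 (adjusted p = 4.7e-05), and without Young_Ctrl 4 the call at 2 months was lost (adjusted p = 0.052).

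Psmb10, which takes the place of Psmb7, had 102, 104, 103 and 109.8 CPM in Young_Ctrl and 98.0, 104, 95.3 and 80.0 CPM in Young_CL, and these overlap. It had 117, 92.4 and 102 CPM in Old_Ctrl and 71.0, 71.6, 71.4 and 66.8 CPM in Old_CL, and these do not. The log2 difference of -0.15 ± 0.09 (SE) at 2 months was not called (adjusted p = 0.19), and the difference of -0.56 ± 0.10 at 12 months was called (adjusted p = 0.00039).

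Transcripts of lymphocytes moved in the same direction. Of the 10 T cell markers, 9 fell with CL at 2 months and 10 at 12 months, and their summed level was 611 to 1097 CPM in Young_Ctrl, 458 to 523 in Young_CL, 426 to 501 in Old_Ctrl and 157 to 249 in Old_CL. Among B cell and lymph node markers, of which 11 were tested, 11 and 8 fell, with a summed level of 1559 to 2123, 900.4 to 1314, 575 to 1111 and 522 to 648 CPM in the same order of groups. None of these markers stood at 0 in a whole group. Natural killer markers, 8 in all, fell in 4 and 6 cases. The adipocyte markers rose in 7 of 10 cases at 2 months and 9 of 10 at 12 months, and markers of thermogenic adipocytes in 9 of 10 at both ages. Macrophage markers fell in 1 of 10 cases at 2 months and 8 of 10 at 12 months, and progenitor and fibroblast markers in 2 of 8 and 8 of 8. Their summed levels were 2338 to 4710 and 4187 to 11012 CPM in Old_Ctrl, against 1656 to 2512 and 2690 to 2935 CPM in Old_CL. In the young groups the macrophage markers stood at 1658 to 2071 CPM with vehicle and 955 to 2069 with CL, and those of progenitors and fibroblasts at 3575 to 5237 and 2121 to 5181. Adjusted for lymph node markers, the log2 changes of Psmb8, Psmb9 and Psmb10 at 12 months were -0.70, -0.65 and -0.61 (adjusted p = 5.5e-04, 0.0011 and 0.0027), and all were called. At 2 months, the same adjustment gave -0.33 for Psmb8 and -0.22 for Psmb9, and neither was called (adjusted p = 0.078 and 0.29). Without the 5 muscle-rich libraries these values were -0.50 and -0.41 (adjusted p = 0.066 and 0.1). The part of T cell, natural killer, macrophage, progenitor and adipocyte transcripts in these results was not tested.

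**Figure D3:**
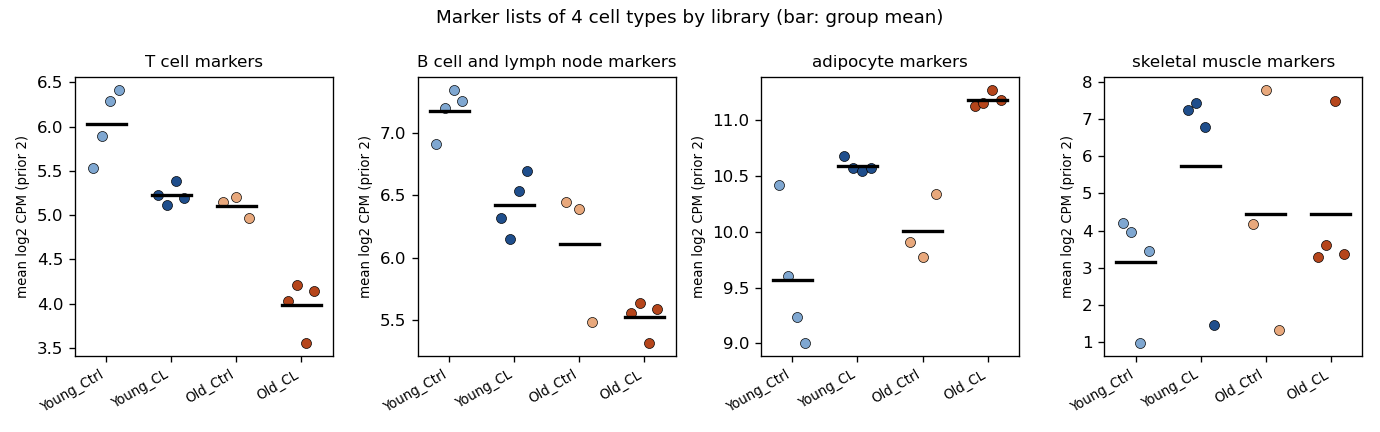
Mean log2 CPM (vertical axis) of the T cell, B cell and lymph node, adipocyte and skeletal muscle marker lists in each library (points), with group means (bars). The T cell list is lowest in Old_CL, where the immune catalytic subunits are lowest too. It is also lower in Old_Ctrl (mean 5.11) than in Young_Ctrl (6.03). Between these groups Psmb8 (-0.18), Psmb9 (-0.19) and Psmb10 (-0.01) were not called over all libraries. Without Young_Ctrl 1, Psmb8 and Psmb9 were called lower. The muscle list separates 5 libraries (6.79 to 7.78) from the other 10 (0.98 to 4.2).

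The balance of immune to constitutive subunits was taken within each library as the log2 ratio of their counts (2 added to each), so that library scaling drops out. For Psmb8 to Psmb5 this ratio was 1.64, 1.91, 2.01 and 2.24 in Young_Ctrl and 0.10, -0.05, 0.32 and 0.03 in Young_CL. It was 1.64, 1.5 and 1.14 in Old_Ctrl and -0.01, 0.03, -0.28 and 0.04 in Old_CL. The vehicle libraries thus held 2.20 to 4.72 reads of Psmb8 for each read of Psmb5, and the CL libraries 0.825 to 1.25, with no overlap at either age. The mean log2 ratio was lower with CL by 1.85 at 2 months (difference -1.85, exact two-sided permutation test, p = 0.029) and by 1.48 at 12 months (difference -1.48, exact permutation p = 0.057).

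For Psmb9 to Psmb6 the log2 ratio differed by -0.86 with CL at 2 months and by -0.97 at 12 months. For Psmb10 to Psmb7 the differences were -1.24 and -1.36. The groups did not overlap in any of these 6 contrasts with CL, and the exact p was the smallest that each design allows, 0.029 with 4 against 4 and 0.057 with 3 against 4. Adjusted over the 12 ratio tests, the values were 0.069 and 0.076, so none of them could pass 0.05. With age, the Psmb9 to Psmb6 ratio was lower at 12 months under vehicle (-0.62, exact p = 0.057) and under CL (-0.74, exact p = 0.029) without overlap. The Psmb10 to Psmb7 ratio did not overlap between ages under CL (-0.46, exact p = 0.029) and did under vehicle (-0.34, exact p = 0.11). The Psmb8 to Psmb5 ratio overlapped between ages under both (-0.52 and -0.16, exact p = 0.11 and 0.29).

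**Figure D4:**
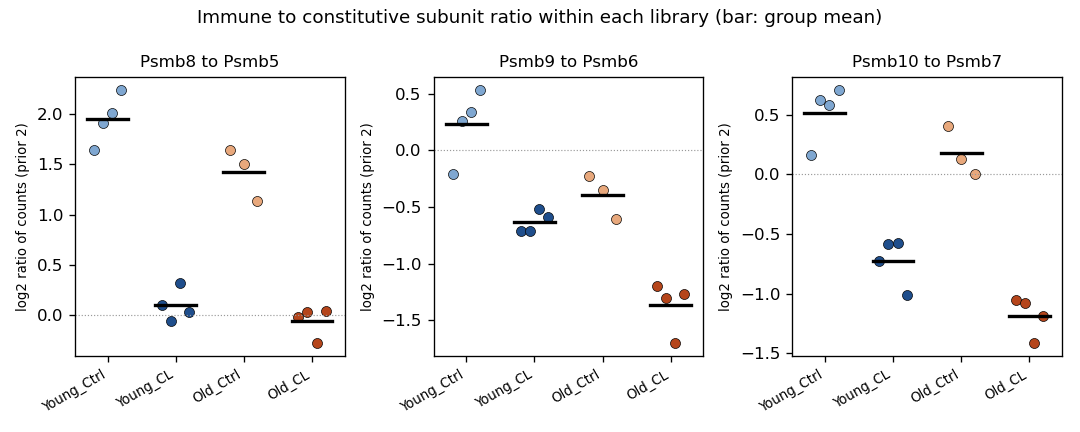
The log2 ratio of counts (vertical axis) of Psmb8 to Psmb5, Psmb9 to Psmb6 and Psmb10 to Psmb7 in each library (points) with group means (bars); 0 marks equal counts. In all 3 pairs the CL libraries lie below the vehicle libraries of the same age, by 0.86 to 1.85 in the group means.

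The alpha ring genes, whose products form the outer rings and the gate of the core, were called higher in 7 of 7 cases at 2 months and in 4 of 7 at 12 months. Psma1 had the largest change of the ring at both ages. Its level was 107, 81.7, 98.4 and 91.3 CPM in Young_Ctrl and 223, 213, 196 and 245 in Young_CL. It was 103, 85.5 and 101 CPM in Old_Ctrl and 171, 174, 207 and 187 in Old_CL. The CL and vehicle libraries were far apart at both ages, and the 2 vehicle groups overlapped. The log2 change was 1.21 ± 0.11 (SE, adjusted p = 5.1e-07) at 2 months and 0.94 ± 0.12 (adjusted p = 3.8e-05) at 12 months. Psma6 followed with 0.90 and 0.55. The smallest change at 2 months was that of Psma7, 0.35, which at 12 months was 0.10 and not called. Psma2 (0.23) and Psma3 (0.27) were not called at 12 months either, and Psma5 (0.29) was called there only with Old_Ctrl 3 in the fit (adjusted p = 0.08 without it).

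In the regulatory particle, the ATPases that form its base and unfold the substrate were called higher in 5 of 6 cases at 2 months, from Psmc3 (0.33) to Psmc4 (0.61). Psmc2 had a log2 difference of 0.21 and was not called (adjusted p = 0.1). At 12 months only Psmc4 of the 6 ATPases was called, at 0.23 (adjusted p = 0.03), and it lost the call without Old_Ctrl 1, Old_Ctrl 3, Old_CL 2 or Old_CL 3 (adjusted p = 0.059 to 0.12). The other subunits, which bind and release ubiquitin and form the lid, were called higher in 11 of 11 cases at 2 months and 10 of 11 at 12 months.

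Psmd4, a receptor for ubiquitin chains, changed most of them at 2 months and least of those called at 12 months. It stood at 122, 106, 98.8 and 98.9 CPM in Young_Ctrl and at 177, 189, 171 and 166 in Young_CL. It stood at 142, 135 and 145 CPM in Old_Ctrl and at 161, 169.7, 189 and 162 in Old_CL. The Old_Ctrl libraries were already above all Young_Ctrl libraries, and the CL groups of the 2 ages overlapped. The log2 change with CL was 0.73 ± 0.09 (SE, adjusted p = 1.5e-05) at 2 months and 0.28 ± 0.10 (adjusted p = 0.029) at 12 months, where the call was lost without Old_Ctrl 1, Old_Ctrl 3, Old_CL 2 or Old_CL 3 (adjusted p = 0.054 to 0.096).

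Psmd14 codes for the enzyme of the lid that cuts ubiquitin off the substrate. Its level was 60.8, 44.7, 48.0 and 46.0 CPM in Young_Ctrl and 83.0, 72.8, 72.4 and 84.2 in Young_CL. It was 43.5, 41.2 and 58.5 CPM in Old_Ctrl and 71.5, 75.4, 84.1 and 76.6 in Old_CL. Each CL group lay above its vehicle group, and the ages overlapped under both treatments. The log2 change was 0.65 ± 0.12 (SE, adjusted p = 0.00059) at 2 months and 0.69 ± 0.13 (adjusted p = 0.00077) at 12 months. Psmd11, a lid subunit, had the smallest change of these subunits at 2 months (0.28), which was lost without any 1 of Young_Ctrl 2, Young_Ctrl 3, Young_CL 1 and Young_CL 4 (adjusted p = 0.071 to 0.12), and 0.41 at 12 months.

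The assembly chaperones, which help to put the rings and the base together and do not stay in the finished particle, were called higher in 4 of 7 cases at 2 months: Psmd5 (0.43), Psmd9 (0.53), Psmd10 (0.35) and Psmg1 (0.48). The call of Psmd10 was lost without Young_CL 2 (adjusted p = 0.050). At 12 months Psmd5 was called higher (0.38), though not without Old_Ctrl 3 (adjusted p = 0.052). Psmg4, whose product helps to build the alpha ring, was called lower at 12 months, as were Psmb10 and Psme1. It had the lowest CPM of the 46 genes in a single library (9.20 in Old_CL 1), though not the lowest mean in every group. Its level was 10.8, 13.7, 12.5 and 13.2 CPM in Young_Ctrl and 12.7, 13.4, 13.6 and 11.6 in Young_CL. It was 15.7, 15.4 and 14.8 CPM in Old_Ctrl and 9.20, 11.2, 9.40 and 9.28 in Old_CL. The 2 young groups overlapped, while at 12 months all CL libraries were below all vehicle libraries. The log2 change was 0.03 ± 0.11 (SE, adjusted p = 0.92) at 2 months and -0.65 ± 0.11 (adjusted p = 0.00036) at 12 months.

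The activators are caps that open the core without ATP. Psme1 and Psme2 code for the subunits of the cap PA28, which interferon-gamma induces together with the immune catalytic subunits. Psme1 stood at 171, 162, 173 and 206 CPM in Young_Ctrl and 180.2, 184, 166 and 181 in Young_CL. It stood at 176, 166 and 191 CPM in Old_Ctrl and 146, 144, 145 and 149.7 in Old_CL. The young groups overlapped with the same mean of 178 ± 19.1 and 178 ± 8.19 CPM (SD), and the old groups did not overlap. The fall at 12 months was 0.28 on the log2 scale (difference -0.28 ± 0.09 SE, adjusted p = 0.025). It was lost without Old_Ctrl 1, Old_Ctrl 4, Old_CL 1 or Old_CL 2 (adjusted p = 0.051 to 0.1).

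Psme2 had 171, 145, 169.7 and 202 CPM in Young_Ctrl and 268, 269.9, 235 and 245 in Young_CL. It had 161, 151 and 173 CPM in Old_Ctrl and 171, 166, 192 and 185 in Old_CL. Only the young groups were apart. The rise at 2 months was 0.56 ± 0.10 (log2, SE, adjusted p = 0.00053), and it was not called without the muscle-rich libraries (0.50, adjusted p = 0.075) or when adjusted for lymph node markers (0.42, adjusted p = 0.073). The difference at 12 months was 0.14 ± 0.11 (adjusted p = 0.31). Reads of Psme2 and of its copy Psme2b cannot be assigned with certainty, and the row of Psme2b fell at both ages (-0.64 and -0.91) at a level of 9.5 ± 3.36 CPM (SD, n = 4) in Young_Ctrl.

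Psme3 codes for a nuclear form of the same kind of cap, and it rose by 0.23 and 0.29. Psme4 codes for PA200, a single-chain cap known for its part in the breakdown of acetylated histones. Its values were 86.2, 74.4, 80.8 and 79.4 CPM in Young_Ctrl and 123, 116, 118 and 136 in Young_CL. In the older mice they were 85.9, 75.6 and 83.6 CPM in Old_Ctrl and 132, 128, 139.7 and 134 in Old_CL. Both CL groups lay well above both vehicle groups, with no difference called between ages. The log2 change was 0.62 ± 0.08 (SE, adjusted p = 2.1e-05) at 2 months and 0.71 ± 0.09 (adjusted p = 3.1e-05) at 12 months. Psmf1, which codes for the inhibitor PI31, was not called with CL at 2 months (-0.18) or at 12 months (0.08). Psme4, Psme1, Psmf1, Psma3, Psma4, Psmb5, Psmd1 and Psmd10 overlap other genes of the table in the GENCODE annotation, for Psmb5 the microRNA gene Mir686. The strand setting of the counting is not given in the sources used here.

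The question of the next comparison was how the same genes differed with age. Under vehicle, 8 of 46 were higher at 12 than at 2 months and 1 was lower, against 15.1% and 12.2% of all genes tested, and the median log2 difference was 0.08, against 0.03 over all genes. The genes called higher were Psmb3 (0.25), Psmb5 (0.36), Psmb6 (0.44), Psmc3 (0.29), Psmc4 (0.23), Psmd4 (0.40), Psmd8 (0.42) and Psmd13 (0.33), and Psmd5 (-0.31) was called lower. In 9 genes the groups did not overlap, all higher at 12 months (14.0% of all genes were so higher and 13.1% lower). The count moved with single libraries, as did that over all genes. It was 16 higher without Young_Ctrl 1 (21.8% of all genes), 2 without Young_Ctrl 3 (9.12%) or without Young_Ctrl 4 (9.83%), and 1 without Old_Ctrl 4 (7.04%). With these 2 groups alone in the fit it was 0 (7.96% of all genes). Adjusted for lymph node markers it was 0 as well, where only 0.111% of all genes were called higher, and with that adjustment Psmb5 and Psmb6 turned to -0.08 and -0.04.

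Psmb6 had the largest called difference under vehicle, 0.44 ± 0.12 (SE, adjusted p = 0.015), and it lost the call without Old_Ctrl 4 (adjusted p = 0.089). Most of the others were less stable over the 7 fits that left out 1 library. Psmc3 lost the call in 6, Psmb3 and Psmc4 in 5, and Psmd8 and Psmd5 in 4. Psmb5 and Psmd13 lost it in 3, and Psmd4 kept it in all 7. Young_Ctrl 1 and Old_Ctrl 4 were each the highest of their group in adipocyte markers, with a mean log2 CPM of 10.42 against 9.0 to 9.6 in the other Young_Ctrl libraries and of 10.34 against 9.77 and 9.90 in Old_Ctrl. They were also the lowest of their groups in B cell and lymph node markers (6.91 against 7.20 to 7.35, and 5.48 against 6.39 and 6.45). The same held for T cell markers (5.53 against 5.90 to 6.42, and 4.97 against 5.15 and 5.21). B cell and lymph node markers were lower at 12 months in 10 of 11 cases under vehicle and T cell markers in 9 of 10. Macrophage markers were higher in 8 of 10. The part of these cell types in the difference was not tested, since the lymph node adjustment cannot fully separate the markers from the group. Psmb8 (-0.18), Psmb9 (-0.19) and Psmb10 (-0.01) were not called. Without Young_Ctrl 1, Psmb8 and Psmb9 were called lower.

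Under CL, 15 of 46 genes were lower at 12 than at 2 months and 1 was higher, against 19.4% and 20.5% of all genes tested, and the median log2 difference was -0.10, against -0.01 over all genes. In 14 genes the older libraries lay below all younger ones, and in 2 above (21.4% and 23.5% of all genes). The immune subunits Psmb8 (-0.53 ± 0.08 SE), Psmb9 (-0.60 ± 0.09) and Psmb10 (-0.43 ± 0.09) were all lower (adjusted p = 0.00023, 9.6e-05 and 0.002). So were the interferon-induced cap genes Psme2 (-0.51) and Psme1 (-0.28). Of the constitutive core, Psma3 (-0.47), Psmb1 (-0.27), Psmb3 (-0.25), Psmb4 (-0.36) and Psmb5 (-0.37) were lower, and Psmb1 and Psmb3 lost the call in 5 and 4 of the 8 fits that left out 1 library (adjusted p = 0.06 to 0.11). The remaining genes called lower were Psmc6 (-0.38) and the chaperones Psmd5 (-0.36), Psmd10 (-0.33), Psmg2 (-0.27) and Psmg4 (-0.39). Of these, Psmg2 lost the call in 6 of the 8 fits (adjusted p = 0.062 to 0.18) and with the replicate number as a block (adjusted p = 0.082), and Psmd10 in 3 (adjusted p = 0.058 to 0.06). None of the 11 non-ATPase subunits of the regulatory particle was called, by edgeR's test, in either direction. Psmf1 was higher, at 33.7, 36.1, 35.2 and 34.5 CPM in Old_CL against 27.3, 27.8, 28.7 and 30.5 in Young_CL (0.29, adjusted p = 0.02), without overlap. It lost the call without Young_CL 1, Young_CL 2 or Old_CL 2 (adjusted p = 0.052 to 0.061).

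With the close libraries Old_CL 1, 2 and 4 summed into 1, the count under CL was 6 lower and 0 higher (11.6% and 13.2% of all genes). Without the muscle-rich libraries, where 1 Young_CL library is left, it was 0 in both directions (4.6% lower and 7.35% higher of all genes). T cell markers were lower at 12 months in 10 of 10 cases under CL and B cell and lymph node markers in 10 of 11. Natural killer markers were lower in 8 of 8 cases, with a summed level of 42.3 to 53.1 CPM in Young_CL and 18.3 to 25.5 in Old_CL. Markers of thermogenic adipocytes were lower in 9 of 10, with 1856 to 2739 CPM in Young_CL and 591 to 716 in Old_CL. Adjusted for lymph node markers, 15 genes were called lower (7.03% of all genes), of which 10 were among the 15 above. Psmd5, Psmd10, Psme1, Psmg2 and Psmg4 lost the call, and Psma2, Psma6, Psmc5, Psmg1 and Psmg3 gained it. The part of natural killer, T cell and thermogenic transcripts in the difference was not tested.

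**Figure D5:**
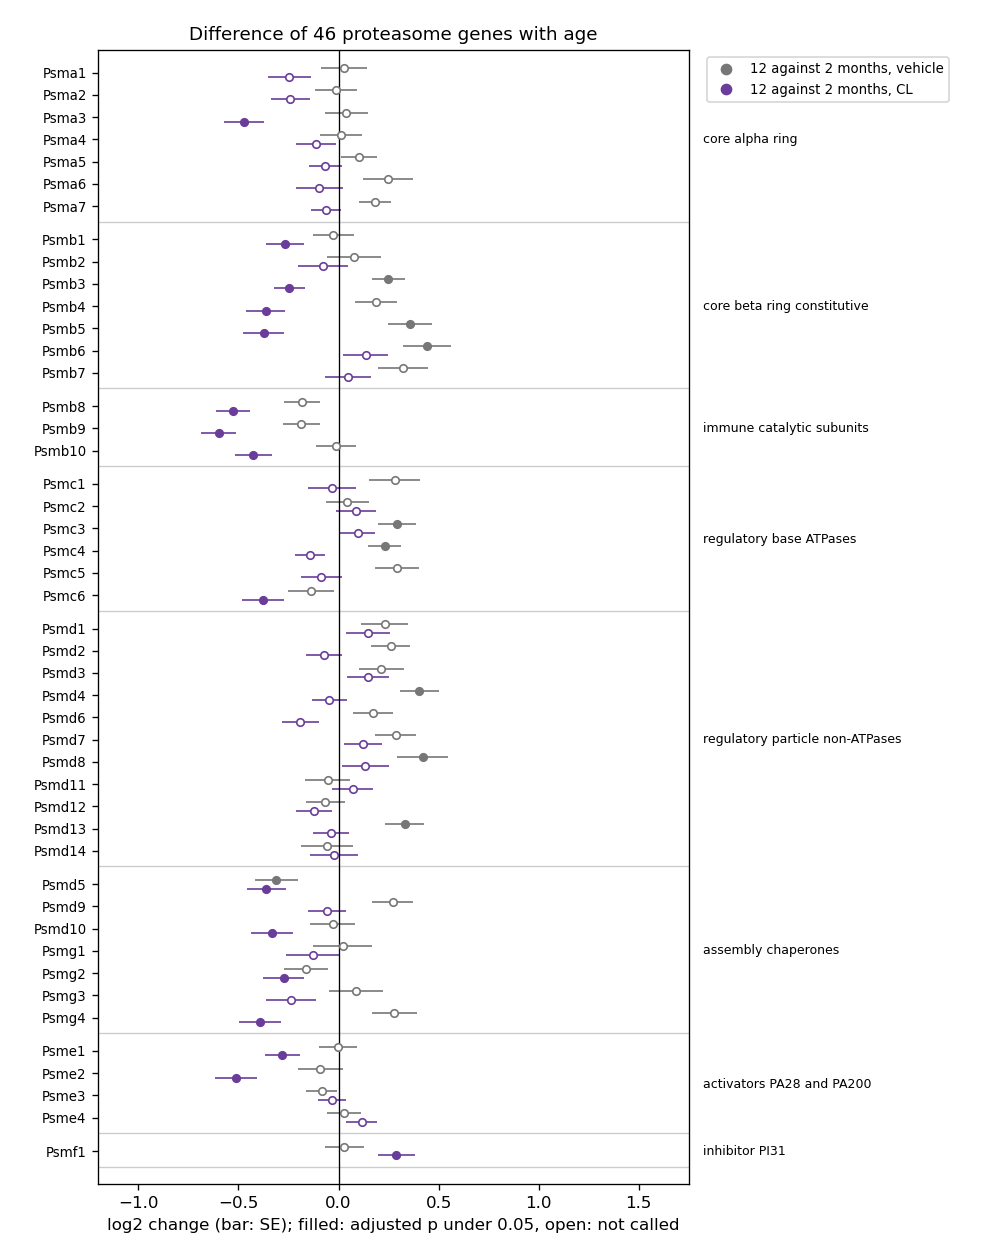
The log2 difference between 12 and 2 months (horizontal axis) of each of the 46 genes (rows, grouped by role) under vehicle (grey) and under CL (purple), with bars of 1 standard error; filled points passed the adjusted p of 0.05. Under CL, 15 genes are called lower, among them all 3 immune subunits, and under vehicle 8 are called higher.

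Whether the change with CL itself differed between ages was tested as the age by treatment interaction. As a signed value, the log2 change with CL was lower at 12 than at 2 months in 40 of the 46 genes, which is a smaller rise for most and a larger fall for genes such as Psmb8, Psmb9 and Psmb10. The interaction was called in 5, all lower at 12 months (3.77% of all genes tested were called lower and 3.31% higher), and 0 higher. The median interaction was -0.28, against -0.02 over all genes. The 5 genes were Psmb5 (-0.73 ± 0.15 SE, adjusted p = 0.011), Psmg4 (-0.67, adjusted p = 0.018), Psmb4 (-0.55, adjusted p = 0.03), Psma3 (-0.51, adjusted p = 0.048) and Psmb3 (-0.49, adjusted p = 0.019). Across the 46 genes, the changes at the 2 ages had a Pearson r of 0.844, against 0.549 across all genes tested. This is given as a description of genes that share libraries.

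Psmb4 shows the interaction in the core. Its level was 115, 116, 118 and 116 CPM in Young_Ctrl and 182, 187, 157 and 143 in Young_CL. It was 118, 129 and 149 CPM in Old_Ctrl and 125, 131, 136 and 129 in Old_CL. At 2 months CL and vehicle were far apart, and at 12 months they overlapped. Psma3 had 58.4, 48.8, 65.0 and 60.9 CPM in Young_Ctrl and 109.8, 99.6, 92.5 and 97.3 in Young_CL. It had 55.2, 57.3 and 67.0 CPM in Old_Ctrl and 67.6, 70.9, 80.1 and 69.6 in Old_CL. Its groups did not overlap at either age, with the smaller gap at 12 months. Psmb3 had 57.2, 56.6, 56.8 and 56.8 CPM in Young_Ctrl and 104, 106, 88.8 and 95.4 in Young_CL, against 64.7, 68.4 and 69.3 in Old_Ctrl and 77.9, 85.9, 89.8 and 78.9 in Old_CL.

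Psma3 lost the interaction call in 10 of the fits that left out 1 library (adjusted p = 0.052 to 0.13), Psmb4 in 7 (adjusted p = 0.050 to 0.092), and Psmb3 lost it without Old_Ctrl 4 (adjusted p = 0.055). The number of members called ran from 2 without Old_Ctrl 4 (1.36% of all genes lower) to 9 without Young_Ctrl 1 (6.43%). It was 8 without Young_CL 4 (7.57%). It was 3 without Young_Ctrl 2, Young_CL 1, Young_CL 2, Old_CL 1, Old_CL 2 or Old_CL 4 (1.76% to 2.7%). It was 12 with DESeq2 (6.63% of all genes lower), 0 with Old_CL 1, 2 and 4 summed (0.415%) and 0 without the muscle-rich libraries (0.531%). For the immune subunits the interactions were -0.35, -0.41 and -0.41, none called by edgeR's test over all 15 libraries (adjusted p = 0.094, 0.056 and 0.073). With DESeq2, Psmb8, Psmb9 and Psmb10 were all called lower. In edgeR fits Psmb8 was called without Young_Ctrl 4, and Psmb9 without Young_Ctrl 4 or Young_CL 4. Psmb10 was called without Young_CL 4 or Old_Ctrl 3, and Psmb9 also when adjusted for lymph node markers.

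Levels were also set beside each other per kilobase of exon, since reads increase with transcript length. Over the 31 constitutive core and regulatory genes, the median level was 45.1 CPM per kb in Young_Ctrl, 61.3 in Young_CL, 58.0 in Old_Ctrl and 67.4 in Old_CL. Psmd11 was lowest in all 4 groups (17.0, 20.6, 16.4 and 21.7 CPM per kb). Psmb6 was highest in Young_Ctrl, Old_Ctrl and Old_CL (101, 137 and 166), and Psma1 in Young_CL (177). On this scale Psmb8 was above Psmb5 under vehicle, with 112 against 52.3 CPM per kb in Young_Ctrl and 99.0 against 66.9 in Old_Ctrl. Under CL it was below, with 83.0 against 140.5 in Young_CL and 57.6 against 108 in Old_CL. Psmb9 lay below Psmb6 in all 4 groups, for instance 69.8 against 101 CPM per kb in Young_Ctrl. Psmb10 lay above Psmb7 by 79.9 against 63.5 in Young_Ctrl, the same within the spread in Old_Ctrl (79.4 against 79.1), and below it in Young_CL (72.0 against 134) and Old_CL (53.6 against 138). The lengths are exon unions of GENCODE vM21, and the counts were made on another build, so these levels are approximate.

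Genes that work with the proteasome were read from lists, of which the first holds partners of the particle and regulators of its transcription. Of the 11 tested, 8 rose with CL at 2 months and 4 at 12 months, and 0 fell by edgeR's test. Over all genes tested, 21.7% rose and 22.1% fell at 2 months, and 23.1% and 22.2% at 12 months. Nfe2l1, which codes for Nrf1, had a mean of 331 ± 86.8 CPM (SD) in Young_Ctrl, 563 ± 28.6 in Young_CL, 517 ± 84.6 in Old_Ctrl and 835 ± 34.6 in Old_CL. It rose with CL at both ages (0.77 and 0.69, adjusted p = 0.0011 and 0.004). It was also higher at 12 than at 2 months under vehicle (0.65, adjusted p = 0.011, and 0.074 without Old_Ctrl 4) and under CL (0.57, adjusted p = 0.0088). Adjusted for lymph node markers, none of these Nfe2l1 calls held in edgeR's test (0.41 with CL at both ages, adjusted p = 0.17 and 0.091, and 0.11 with age under both treatments, adjusted p = 0.92 and 0.76). Without the muscle-rich libraries, it was not called with CL at 12 months (0.63, adjusted p = 0.055) or with age under CL (0.45, adjusted p = 0.34). Nfe2l2, its relative that answers to oxidative stress, was among the genes not called with CL (0.04 and -0.14). Shfm1, the smallest subunit of the lid, rose at 2 months (0.57) and had -0.17 at 12 months, and its interaction of -0.74 was called (adjusted p = 0.013). Pomp, the chaperone that completes the core, had 0.53 and -0.02.

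Of 14 genes of ubiquitin supply and delivery, 9 rose and 0 fell with CL at 2 months, and 10 rose and 1 fell at 12 months. The shares over all genes tested were 21.7% and 22.1% at 2 months, and 23.1% and 22.2% at 12 months. Ubqln4, a shuttle that brings substrates to the proteasome, rose by 0.65 and 0.54. Vcp, an ATPase that pulls ubiquitin-tagged proteins out of membranes and complexes, rose by 0.61 and 0.36. Rps27a, which makes ubiquitin fused to a ribosomal protein, was the gene that fell at 12 months (-0.82, adjusted p = 0.00068).

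Of 10 genes of class I antigen presentation, 1 rose and 2 fell with CL at 2 months, and 1 rose and 4 fell at 12 months. Over all genes tested, 21.7% rose and 22.1% fell at 2 months, and 23.1% and 22.2% at 12 months. With so few genes, these counts are not read as a result about the list. Tap1, which codes for part of the peptide transporter and lies next to Psmb9, fell at both ages (-0.61 and -0.76, adjusted p = 0.0008 and 0.00028). At 2 months it was not called when adjusted for lymph node markers (-0.34, adjusted p = 0.17) or without the muscle-rich libraries (-0.67, adjusted p = 0.067). Its mean was 204 ± 34.5 CPM (SD) in Young_Ctrl, 134 ± 10.4 in Young_CL, 153 ± 14.2 in Old_Ctrl and 90.6 ± 8.73 in Old_CL. The class I heavy chain genes H2-K1 (0.05 and -0.02) and H2-D1 (0.18 and 0.07) were not called. Of 8 regulators of the interferon-gamma response, 6 fell with CL at each age and 1 rose at 12 months, to be set beside the same shares. Among those followed across settings, Jak1, Jak2 and Nlrc5 lost the 2-month call and Jak2 the 12-month call when adjusted for lymph node markers. Without the muscle-rich libraries these calls were lost too, as was that of Irf1 at 2 months. Irf1, a transcription factor that activates the immune catalytic subunits, fell at both ages (log2 changes -0.57 and -0.52, adjusted p = 0.00011 and 0.00044). Ifngr1, which codes for a chain of the receptor, was the gene that rose (0.41, adjusted p = 0.013, and 0.077 without Old_Ctrl 1). Its call was also lost when adjusted for lymph node markers and without the muscle-rich libraries.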

How the data were processed

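PolyA RNA was sequenced after TruSeq library preparation, with all libraries on 1 lane, per the labels. The submitters' processing notes name STAR, featureCounts of Subread and the mm9 build, with versions and strand setting not given in the sources used here. The authors deposited 1 table of integer read counts per gene (24015 genes, 15 libraries, 6115542 to 51577001 counts). Genes passing edgeR's filterByExpr (15288) were fitted with edgeR 4.0.16 (R 4.3.3; TMM, robust quasi-likelihood F test, 1 mean per group over all 15 libraries), with Benjamini-Hochberg adjustment over all of them. SE is the log2 change divided by the root of F. Ratios within a library used a prior count of 2 and exact two-sided permutation tests. The fit was tested on simulated counts. Other settings tried were DESeq2 1.42.0, limma-voom (limma 3.58.1), RLE or upper-quartile scaling, other filters, the replicate number as a block, marker scores as covariates, summed or left-out libraries, the compared groups alone, and prior counts of 0.5 and 5. Members and lists were chosen with earlier results of these data known. Named were the catalytic genes, Psme1, Psme2, the largest and smallest called change per role and comparison, genes called against the majority, and up to 4 genes per list by p. Nfe2l2, H2-K1, H2-D1 and any other gene outside that rule were named after their values were seen. The number Old_Ctrl 2 did not occur among the 15 libraries.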

Additional observations from a re-analysis of the deposited data

Results flagged for a closer look

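In 147 tests of a highest or lowest library within a group of 4 (Dixon's test at 95%, of which about 1 in 20 is expected by chance), 12 stood apart, and 10 of those were in 2 libraries. Old_CL 3, a muscle-rich library, was highest for Psma2 (105 CPM against 90.1 to 92.1 in the other Old_CL libraries), Psmb6 (151 against 123 to 127), Psmb7 (190.0 against 148 to 152), Psmc3 (150.0 against 126 to 129.9), Psmd7 (113 against 95.4 to 98.1) and Psmd8 (203 against 159 to 162). It was lowest for the log2 ratio of Psmb8 to Psmb5 (-0.277 against -0.0143 to 0.0384). Young_Ctrl 1 was highest for Psmb7 (91.4 CPM against 67.2 to 68.8 in the other Young_Ctrl libraries), Psmc1 (118 against 83.1 to 86.0) and Psmd1 (127 against 88.7 to 93.2). Psmb10 was lowest in Old_CL 4 (66.8 CPM against 71.0 to 71.6), and Psmg4 was highest in Old_CL 2 (11.2 CPM against 9.20 to 9.40).

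The change with CL differed between ages by the interaction test in Psma3 (-0.51), Psmb3 (-0.494), Psmb4 (-0.552), Psmb5 (-0.733) and Psmg4 (-0.673), each smaller or more negative at 12 months on the log2 scale.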

How the results depend on the processing

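Of the counts and ratios, 287 of the values under other settings stayed within 1.5 times the reported count or kept the direction and side of the threshold, and 49 moved. All 12 ratios kept their direction under every setting tried, and their adjusted p could not pass 0.05 in these designs. The count higher with CL at 2 months (37) was 12 when adjusted for lymph node markers and 21 without the 5 muscle-rich libraries; the count lower (2) was 4 with upper-quartile factors, 0 with that adjustment and 0 without those libraries, and 1 to 3 with 1 library left out. The count higher at 12 months (22) was 7 with that adjustment, 8 without the muscle-rich libraries and 14 to 25 with 1 library left out. Under vehicle, the count higher with age (8) was 5 with no filter, 5 with the replicate number as a block, 5 with the muscle score as a covariate, 0 adjusted for lymph node markers, 0 with the 2 groups alone, 5 without the muscle-rich libraries and 1 to 16 with 1 library left out; the count lower (1) was 0 under each of the muscle score, the lymph node adjustment, the 2 groups alone and the muscle-rich libraries left out, and 0 to 2 with 1 left out. Under CL, the count lower with age (15) was 6 with Old_CL 1, 2 and 4 summed, 0 without the muscle-rich libraries and 11 to 17 with 1 left out; the count higher (1) was 0 with the lymph node adjustment, with the 3 libraries summed and without the muscle-rich ones, and 0 to 1 with 1 left out. The interaction count (5 lower) was 12 with DESeq2, 3 with the replicate block, 3 with the muscle score, 0 with the 3 libraries summed, 0 without the muscle-rich libraries and 2 to 9 with 1 left out. Summed or left-out libraries leave fewer samples; the cause of the other shifts was not tested. Upper-quartile factors gave 2839 higher and 4491 lower calls over all genes with CL at 2 months, against 3323 and 3383 with TMM, and 34 and 4 against 37 and 2 among the 46 genes.

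Adjusted for lymph node markers, 4 named values reversed: the age difference under vehicle of Psmb5 (-0.0803), Psmb6 (-0.0415) and Ciita (0.43), and the age difference under CL of Ciita (0.42). The marker score itself differed between the groups, so this fit cannot fully separate the markers from the group. Single named genes otherwise kept direction and call in 2735 fits, lost the call in 364 and gained it in 31.

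The replicate numbers were not shown to pair the libraries: deviations of libraries with the same number had correlations of -0.236 to 0.343, not all above 0.1. The replicate block moved the 2 counts given above by over 1.5 times and no other count.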
